A study of Mus musculus with 20 samples.

Results

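The 35 genes described here encode the core machinery of macroautophagy and its cargo receptors. They were chosen by name, with earlier results of these data known. Of the 35, 34 had a probe set in the deposited table, 1 each, and 33 were bright enough to be tested, out of 11767 genes tested and 17771 genes measured. Atg4b had a probe set but exceeded its array's 40th percentile on 1 of 20 arrays and was not tested, and Optn is not analysed here. RNA came from eosinophils grown from mouse bone marrow, in 4 groups of 5 arrays. Cells of 5 wild-type mice (Dusp5+/+) and 5 knockout mice (Dusp5-/-) were taken at day 12 of culture, and each culture was either left in medium alone or given IL-33 at 25 ng/ml for 4 hours. All 4 groups were therefore cultured cells differentiated outside the animal, and the sources used here do not give the deleted part of Dusp5, the strain, or the sex and age of the mice. The treatment of the IL-33 samples was taken from their treatment field, since their titles carry the gene name in its place. Values are log2 expression as deposited, a difference of 1 being a 2-fold change. A gene was called where limma gave an adjusted p (Benjamini-Hochberg over the 11767 genes) under 0.05. The 2 arrays that share a number and a genotype were taken as 1 mouse, and n counts mice.

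Macroautophagy encloses cytoplasm in a growing membrane, the phagophore, which closes into an autophagosome and fuses with the lysosome. The ULK1 kinase complex starts the process, a phosphatidylinositol 3-kinase complex around Beclin 1 marks the membrane, ATG9 and ATG2 supply lipid, and conjugation systems attach small ubiquitin-like proteins of the ATG8 family (LC3 and GABARAP) to the membrane. Cargo receptors such as p62 bind both the cargo and ATG8 proteins. Loss of Atg5 in mouse eosinophils is known to reduce their formation in the bone marrow and to increase their release of granule proteins and DNA. The arrays measured messenger RNA and neither protein nor the turnover of autophagosomes.

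Dusp5, the deleted phosphatase gene, stood at 8.15 ± 0.26 (SD, n = 5) in wild-type cells without and 9.77 ± 0.35 with IL-33, against 4.40 ± 0.31 and 4.95 ± 0.18 in knockout cells. Array medians lay between 4.25 and 4.32, and arrays of a group correlated at 0.976 to 0.996. All 6 measured eosinophil markers of 9 listed exceeded the percentile on every array, among them the granule protein genes Epx (13.52 ± 0.31 in untreated wild-type cells) and Prg2 (13.82 ± 0.11). The receptor genes Siglecf, Ccr3 and Il5ra stood at 10.46 ± 0.26, 8.55 ± 0.72 and 8.33 ± 0.27 there. With IL-33 Il5ra fell by 0.84 and Siglecf by 0.71 in wild-type cells, and mouse as a fixed block also called Ccr3 down in both genotypes. Genes listed as markers of other cells were also read, which does not show the cells that carry them. All 7 measured neutrophil markers exceeded the percentile on every array, with a summed linear level of 3019 to 8145. None was called with IL-33 by limma without a mouse term. Ltf, Mpo and Mmp8 of these were lower after IL-33 in all 10 mice and Camp in 9, and the random block of mouse called Camp and Ltf down in knockout cells. With mouse as a fixed block 2 of the 7 were called down in wild-type cells, and 5 down and 1 up in knockout cells. The 7 measured markers of mast cells and basophils summed to 9201 to 13113, with 1 called up and 2 called down in each genotype. The 7 measured markers of monocytes, macrophages and dendritic cells summed to 5407 to 9113 in untreated and 7808 to 11592 in IL-33 arrays. Of these 7, Adgre1 was the brightest on every array, at 10.88 to 12.63, and weighs most in the sums. Adgre1 (0.70 and 0.66 in wild-type and knockout cells) and Csf1r (0.62 and 0.54) rose in both genotypes. Of the 6 tested, 2 were thus called up in each, and C1qa fell by 0.40 in knockout cells (adjusted p = 0.0443), being lower in all 10 mice. C1qb was lower in 9 mice and not called without a mouse term (-0.19 and -0.24). The median of the 6 was 0.08 in the wild type and -0.05 in the knockout. Mouse as a fixed block called 3 of the 6 up and 2 down in wild-type cells, and 2 up and 3 down in knockout cells. The 5 measured lymphocyte markers summed to 50.4 to 63.5 in all groups, and of the 2 tested Cd3e was called up in wild-type cells and neither in knockout cells. The part of other cells in the results below was not tested.

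Promoters of 3 members with large changes after IL-33 are shown, Atg14 and Map1lc3b for the falls and Sqstm1 for the rise described below. They are the 300 bases from 250 before to 50 after the transcription start in RefSeq (GRCm38.p6), read 5′ to 3′ on the gene's strand. Capitals mark a match to one of 5 searched motifs. Atg14 lies on the minus strand at chr14:47568385-47568684, Map1lc3b on the plus strand at chr8:121590188-121590487 and Sqstm1 on the minus strand at chr11:50210771-50211070.
Atg14: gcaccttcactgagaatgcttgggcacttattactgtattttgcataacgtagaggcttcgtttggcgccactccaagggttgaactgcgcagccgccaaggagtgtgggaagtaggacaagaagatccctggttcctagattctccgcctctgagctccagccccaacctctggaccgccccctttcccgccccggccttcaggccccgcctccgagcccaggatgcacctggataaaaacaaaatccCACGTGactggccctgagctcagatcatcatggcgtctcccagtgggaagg
Map1lc3b: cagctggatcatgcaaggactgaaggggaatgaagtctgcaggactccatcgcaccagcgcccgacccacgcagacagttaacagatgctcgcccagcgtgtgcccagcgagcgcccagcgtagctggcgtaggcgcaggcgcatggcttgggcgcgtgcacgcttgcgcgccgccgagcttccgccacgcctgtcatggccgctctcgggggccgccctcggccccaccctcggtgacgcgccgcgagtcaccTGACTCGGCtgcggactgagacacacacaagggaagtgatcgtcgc
Sqstm1: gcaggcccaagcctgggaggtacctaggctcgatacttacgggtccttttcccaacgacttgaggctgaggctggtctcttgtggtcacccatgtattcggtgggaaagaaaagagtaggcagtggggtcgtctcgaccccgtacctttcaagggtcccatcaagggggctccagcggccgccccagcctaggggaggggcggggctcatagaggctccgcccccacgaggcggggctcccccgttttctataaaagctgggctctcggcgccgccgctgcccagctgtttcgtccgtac
The capitals in Atg14 are CACGTG, the E-box core of the CLEAR element that TFEB and TFE3 bind, and start 1 base before the transcription start. Those in Map1lc3b match TGACNNNGC, the core of the antioxidant response element, and start 4 bases after it. Sqstm1 held no match in this window. The window of Atg2a, a further member with a large fall in both genotypes, held no match either and is not printed. Both strands were searched in the windows of 27025 genes, 28 of them members. CACGTG was in the windows of 4 members (Atg14, Atg3, Atg5 and Atg7), or 14.3%, against 8.09% of all genes. Its longer form TCACGTGA, which contains it, was in 1 member (Atg3), against 1.13% of genes. TGACNNNGC was in 4 members (Atg13, Map1lc3b, Tax1bp1 and Ulk2), or 14.3%, against 14.0% of genes. The FOXO site GTAAACA was in none of the 28 (4.05% of genes), and the AP-1 site TGACTCA in none (5.95%). A match is a string of letters in a window and does not show that a factor binds there.

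The first comparison asked what IL-33 did to these transcripts within each genotype. In wild-type cells 19 of the 33 tested members fell and 3 rose (Sqstm1, Tax1bp1 and Atg4d), while 11 were not called. Of all genes tested 26.7% were called down and 16.1% up there, against 57.6% and 9.09% of the members. In knockout cells 22 members fell and 4 rose, the fourth being Atg9a, with 33.2% of all genes called down and 18.9% up, against 66.7% and 12.1% of the members. The members' median change was -0.29 (wild type) and -0.37 (knockout), beside medians of -0.05 and -0.08 over all tested genes. The share called down was larger among brighter genes. A filter at the 60th percentile kept 29 members and 8309 genes. Wild-type calls then took 18 members and 35.4% of genes down, and 3 members and 19.3% up. Knockout calls took 20 members and 43.4% of genes down, and 4 members and 21.4% up. How much of the members' excess goes with brightness was not tested. The 5 IL-33 arrays did not overlap the 5 untreated arrays for 17 of the 33 members in wild-type cells, where 28.3% of all genes showed no overlap. In knockout cells the same was true of 24 of 33 members and 38.5% of all genes. The 3 rises and 19 falls of wild-type cells were called in the same direction in knockout cells, as were 1610 of 1890 rises and 2967 of 3137 falls over all genes. With mouse as a random block 23 members fell and 4 rose in wild-type cells, and 24 fell and 6 rose in knockout cells. Over all genes that block called 35.2% down and 21.7% up in wild-type cells and 40.7% down and 24.8% up in knockout cells. In bulk RNA, fewer cells that carry a transcript and less of it per cell cannot be told apart.

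**Figure D1:**
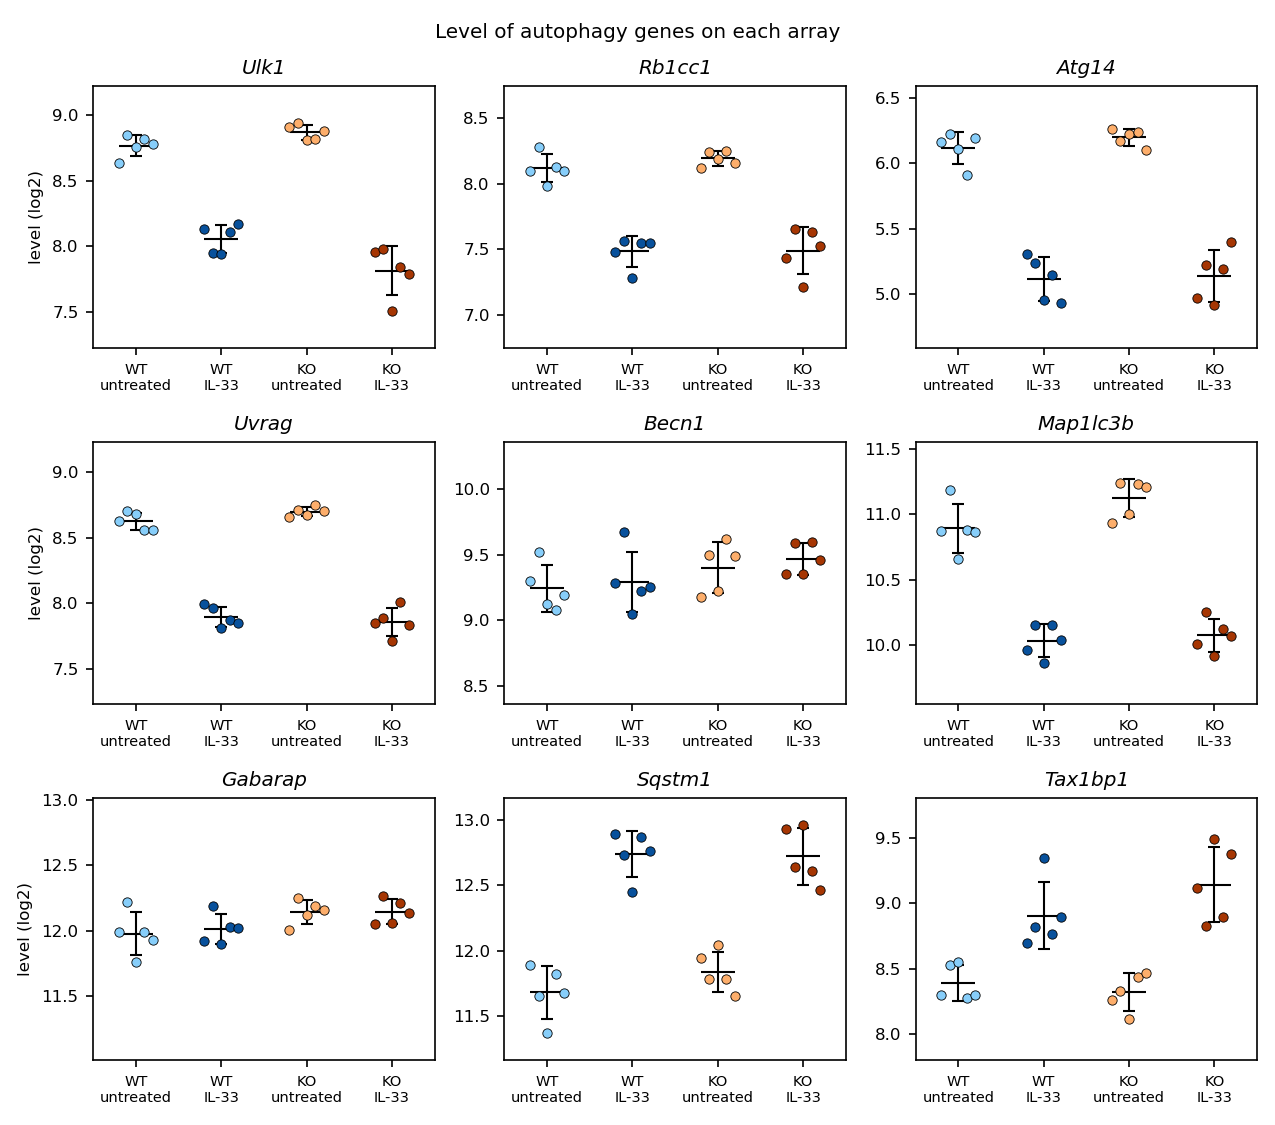
Each panel plots the log2 level of 1 gene on each array, by group of 5 mice, with horizontal lines at the mean and bars of 1 SD. All panels span 2 log2 units. Ulk1, Rb1cc1, Atg14, Uvrag and Map1lc3b lay lower and Sqstm1 and Tax1bp1 higher on every IL-33 array than on any untreated array of the genotype, while Becn1 and Gabarap overlapped.

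All 5 genes of the ULK1 complex fell in both genotypes. Ulk1, the kinase that starts autophagosome formation, read 8.64, 8.85, 8.76, 8.82 and 8.78 in untreated wild-type cells of mice 1 to 5 and 8.13, 7.95, 7.94, 8.11 and 8.17 after IL-33. In knockout cells it read 8.91, 8.94, 8.81, 8.82 and 8.88 untreated and 7.96, 7.98, 7.51, 7.84 and 7.79 after IL-33. Every IL-33 array lay below every untreated array of its genotype, and knockout mouse 3 was the lowest of all. The change was -0.71 ± 0.08 (SE, adjusted p = 5.1e-07 by limma) in wild-type and -1.06 ± 0.08 (adjusted p = 1.21e-09) in knockout cells, or 1.64-fold and 2.08-fold lower.

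Ulk2, its paralogue, went from 7.85–8.56 untreated to 7.17–7.67 in wild-type cells and from 8.18–8.60 to 7.22–7.73 in knockout cells. It fell by 0.69 ± 0.13 (adjusted p = 0.000221, limma) and by 0.90 ± 0.13 (adjusted p = 7.37e-06). Rb1cc1, which encodes the scaffold FIP200, read 7.98–8.28 untreated and 7.28–7.56 after IL-33 in wild-type cells. In knockout cells the same gene read 8.12–8.25 and 7.21–7.65, so neither genotype's groups overlapped. It fell by 0.63 ± 0.08 (adjusted p = 3.25e-06, limma) and by 0.70 ± 0.08 (adjusted p = 5.7e-07). Atg13, the adaptor that joins the kinase to its scaffold, fell by 0.29 ± 0.07 (adjusted p = 0.00279) in wild-type and by 0.42 ± 0.07 (adjusted p = 7.66e-05) in knockout cells. Atg101, which stabilises ATG13, fell by 0.34 ± 0.09 (adjusted p = 0.00655) and by 0.43 ± 0.09 (adjusted p = 0.000812), with overlapping groups in wild-type cells and none in knockout cells. The 5 genes differed in size of change within the complex, from the kinases and scaffold at -0.63 or beyond in both genotypes to Atg13 and Atg101 at -0.29 to -0.43.

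Of the 5 genes of the phosphatidylinositol 3-kinase complex, 4 fell in both genotypes and Becn1 was not called in either. Atg14, which directs the complex to the site of autophagosome formation and whose promoter is printed above, read 6.16, 6.22, 6.11, 5.91 and 6.19 untreated and 5.31, 5.24, 4.96, 5.15 and 4.93 after IL-33 in wild-type cells. The knockout arrays read 6.26, 6.17, 6.22, 6.24 and 6.10 untreated and 4.97, 5.22, 4.92, 5.19 and 5.40 after IL-33. The lowest untreated array lay above the highest IL-33 array in both genotypes. Atg14 fell by 1.00 ± 0.09 (adjusted p = 3.75e-08, limma) and by 1.06 ± 0.09 (adjusted p = 1.07e-08), or 2.00-fold and 2.09-fold.

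Uvrag, the subunit that takes the place of ATG14 in the complex that acts on endosomes, read 8.56–8.70 untreated and 7.81–7.99 after IL-33 in wild-type cells. In the knockout it read 8.66–8.75 and 7.71–8.01. Its arrays were tightly grouped, with SDs of 0.04 to 0.11, and it fell by 0.73 ± 0.06 (adjusted p = 6.38e-09, limma) and by 0.84 ± 0.06 (adjusted p = 5.81e-10). Pik3c3, the catalytic subunit VPS34, fell by 0.59 ± 0.07 (adjusted p = 5.68e-07) in wild-type cells, from 7.84–7.99 to 7.20–7.42. In knockout cells Pik3c3 fell by 0.77 ± 0.07 (adjusted p = 8.29e-09), from 7.89–8.03 to 6.98–7.30. Pik3r4, which encodes the regulatory subunit VPS15, fell by 0.30 ± 0.07 (adjusted p = 0.00191) and by 0.37 ± 0.07 (adjusted p = 0.000192), without overlap in either genotype. Its probe set carries a suffix for sets that can match transcripts of more than 1 gene, as do those of Atg5, Tax1bp1 and Map1lc3a. Becn1, which encodes the central subunit Beclin 1, read 9.08–9.52 untreated and 9.05–9.67 after IL-33 in wild-type cells, and 9.18–9.62 and 9.35–9.60 in knockout cells. Its changes of 0.05 ± 0.11 (adjusted p = 0.751) and 0.07 ± 0.11 (adjusted p = 0.629) were smaller than the spread between mice, so 4 of the 5 subunits fell beside a Becn1 reading that did not pass the test.

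**Figure D2:**
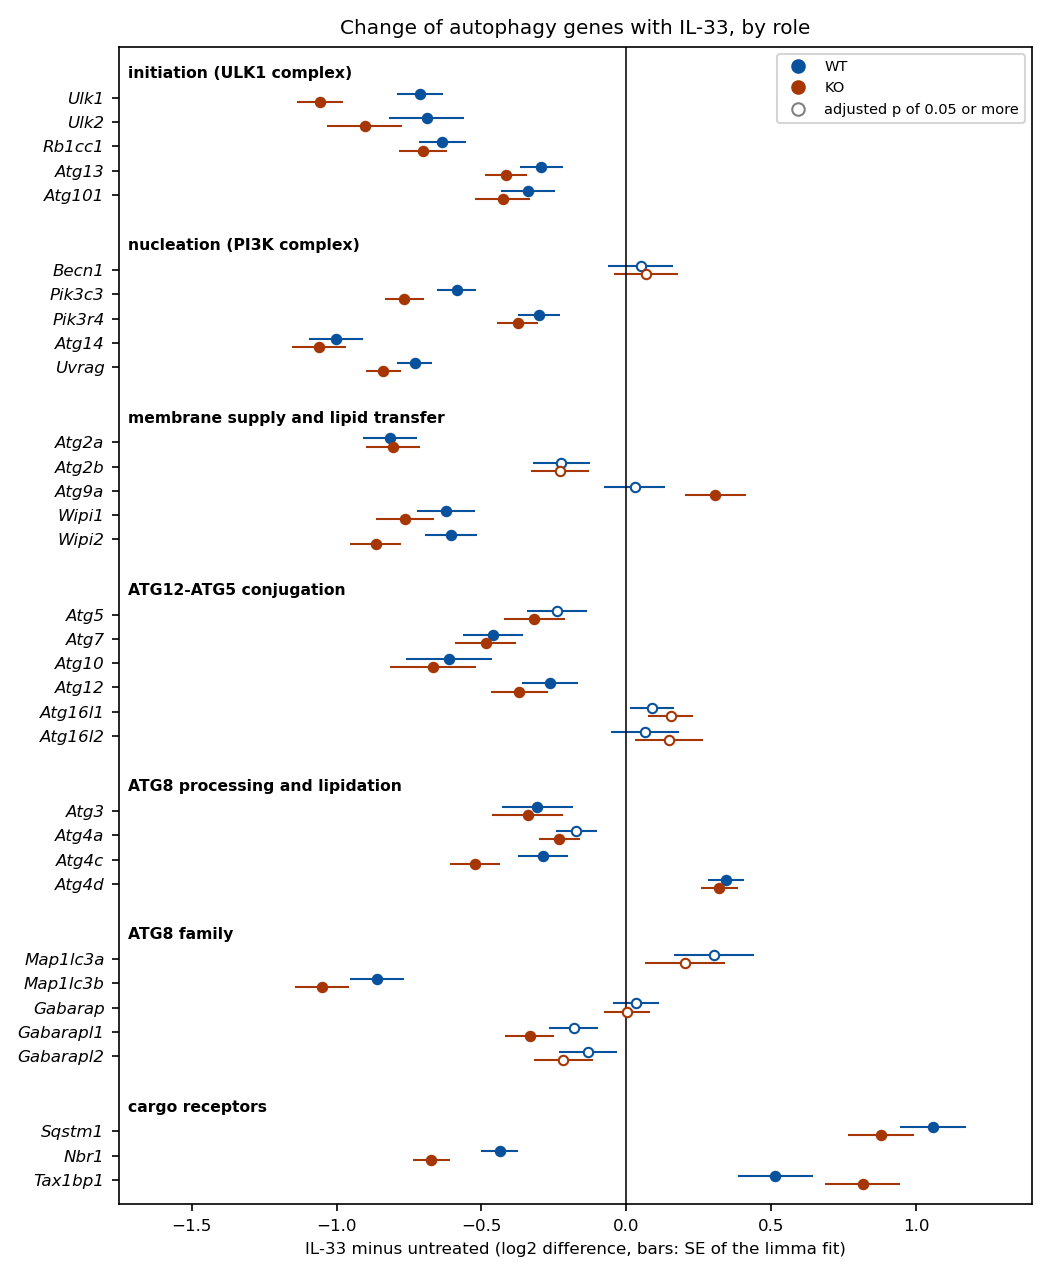
Points are log2 differences, IL-33 minus untreated, of the 33 tested members by role, blue for wild-type and brown for knockout cells, with bars of 1 SE. Filled points were called at an adjusted p under 0.05. All 5 genes of the ULK1 complex lie left of 0, and Sqstm1 and Tax1bp1 lie furthest right.

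Among the 5 genes of membrane supply, Atg2a, Wipi1 and Wipi2 fell in both genotypes. Atg2a, a lipid transfer protein between the endoplasmic reticulum and the phagophore, read 7.75, 8.07, 7.76, 7.88 and 7.89 untreated and 7.00, 7.20, 6.73, 7.17 and 7.17 after IL-33 in wild-type cells. Knockout cells gave 7.91, 7.94, 7.69, 7.83 and 7.84, then 7.20, 7.10, 6.86, 6.94 and 7.07. No IL-33 array reached an untreated array. Atg2a fell by 0.81 ± 0.09 (adjusted p = 6.08e-07, limma) and by 0.80 ± 0.09 (adjusted p = 4.65e-07). Wipi1 and Wipi2 encode proteins that bind phosphatidylinositol 3-phosphate on the phagophore, and WIPI2 recruits ATG16L1. Wipi1 went from 7.45–7.81 to 6.73–7.28 in wild-type and from 7.42–7.76 to 6.67–6.96 in knockout cells, a fall by 0.62 ± 0.10 (adjusted p = 4.87e-05) and by 0.76 ± 0.10 (adjusted p = 2.84e-06). Wipi2 went from 7.18–7.34 to 6.47–6.86 and from 7.21–7.42 to 6.09–6.60, a fall by 0.61 ± 0.09 (adjusted p = 1.52e-05) and by 0.86 ± 0.09 (adjusted p = 9.36e-08).

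Atg2b, the paralogue of Atg2a, was dim, at 3.70 to 4.32 over all arrays. Its changes of -0.22 ± 0.10 (adjusted p = 0.0759) and -0.23 ± 0.10 (adjusted p = 0.0589) were not called by limma without a mouse term, and gave adjusted p of 0.0263 and 0.0200 with mouse as a random block. Quantile normalization called both (-0.26, adjusted p = 0.0428, and -0.27, adjusted p = 0.0318). Atg9a, which encodes the lipid scramblase of the vesicles that seed the phagophore, read 7.27–7.68 untreated and 7.42–7.55 after IL-33 in wild-type cells. The knockout arrays gave 7.58, 7.06, 7.56, 7.13 and 7.23 untreated and 7.68, 7.35, 7.54, 7.70 and 7.82 after IL-33. The groups overlapped in both genotypes, and mice 1 and 3 of the knockout were already high without IL-33. Atg9a was not called in wild-type cells (0.03 ± 0.11, adjusted p = 0.845) and rose in knockout cells (0.31 ± 0.11, adjusted p = 0.0196, limma). That rise gave adjusted p of 0.0628 without knockout untreated array 2, 0.0574 without array 4 and 0.0589 without knockout IL-33 array 5, and 0.0545 when only the knockout groups were fitted. The difference in response between genotypes was 0.28 ± 0.15 and was not called (adjusted p = 0.999).

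Of the 6 genes of the conjugation of ATG12 to ATG5, 3 fell in wild-type and 4 in knockout cells. Atg10, the E2-like enzyme for ATG12, read 4.88–5.38 untreated and 3.95–4.71 after IL-33 in wild-type cells and 4.57–5.22 and 4.00–4.51 in knockout cells. It fell by 0.61 ± 0.15 (adjusted p = 0.00227, limma) and by 0.67 ± 0.15 (adjusted p = 0.000827), the largest changes of the group and without overlap. Atg7, the E1-like enzyme of both conjugation systems, read 8.94, 9.18, 8.56, 9.00 and 8.92 untreated and 8.50, 8.61, 8.11, 8.61 and 8.47 after IL-33 in wild-type cells. Untreated mouse 3, at 8.56, lay among the IL-33 arrays, and that mouse was lower again after IL-33. Atg7 fell by 0.46 ± 0.10 (adjusted p = 0.00135) in wild-type and by 0.49 ± 0.10 (adjusted p = 0.000618) in knockout cells, where the groups stood apart. Atg12, the ubiquitin-like protein itself, fell by 0.26 ± 0.10 (adjusted p = 0.0353) and by 0.37 ± 0.10 (adjusted p = 0.00349). The wild-type call was lost without untreated array 3 or 5 or IL-33 array 1, 2 or 4, at adjusted p of 0.0591 to 0.118. It was also lost with quantile normalization (0.0875) and when only the wild-type groups were fitted (0.0909). Untreated array 3, at 9.07, was the highest of all. Atg5, the acceptor of ATG12, was not called in wild-type cells (-0.24 ± 0.10, adjusted p = 0.0716, and 0.00785 with mouse as a random block) and fell by 0.32 ± 0.10 in knockout cells (adjusted p = 0.0153). Quantile normalization brought the knockout change to -0.19 (adjusted p = 0.134), which ended that call. Atg5 was lower after IL-33 in all 10 mice. Atg16l1, the partner that brings the conjugate to the membrane, was not called (0.09 ± 0.08, adjusted p = 0.374, and 0.15 ± 0.08, adjusted p = 0.102, with 0.023 under the random block in knockout cells). In knockout cells it was called up with quantile normalization (0.31, adjusted p = 0.00262) and when only those groups were fitted (adjusted p = 0.0446). Its paralogue Atg16l2 was dim and not called (0.06 ± 0.12, adjusted p = 0.691, and 0.15 ± 0.12, adjusted p = 0.297).

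The genes that process ATG8 proteins moved in both directions. Atg3, the E2-like enzyme for ATG8, was close to the percentile, which lay between 3.56 and 3.68, and exceeded it on 13 of 20 arrays. It fell at least 1.04-fold in wild-type (adjusted p = 0.0493) and at least 1.16-fold in knockout cells (adjusted p = 0.0247), with overlapping groups in both. These bounds set each dimmer array below the percentile to it. The wild-type call was lost on leaving out any of 15 of the 20 arrays in turn, at adjusted p of 0.0501 to 0.135, and when only the wild-type groups were fitted (0.0589). It was also lost with array weights (-0.21, adjusted p = 0.147), without the filter (0.0647), with another variance model (0.0520) and without mouse 3 (0.0680). The knockout call was lost without knockout untreated array 2 or 4 or knockout IL-33 array 1 or 2, at 0.0618 to 0.0791. Of the ATG4 proteases, which trim ATG8 proteins and release them from the membrane, Atg4c fell by 0.29 ± 0.09 (adjusted p = 0.0109) and by 0.52 ± 0.09 (adjusted p = 4.44e-05). Its wild-type change was -0.18 with quantile normalization and was then not called (adjusted p = 0.111). Atg4a was not called in wild-type cells (-0.17 ± 0.07, adjusted p = 0.0563, and 0.0165 with mouse as a random block) and fell by 0.23 ± 0.07 in knockout cells (adjusted p = 0.00967). That fall was smaller with quantile normalization, at -0.10, and not called (adjusted p = 0.259). Atg4d went the other way. It read 6.67, 6.53, 6.83, 6.73 and 6.68 untreated and 7.14, 6.91, 6.97, 7.05 and 7.09 after IL-33 in wild-type cells, and 6.75, 6.57, 6.62, 6.69 and 6.63 and then 7.05, 6.94, 6.95, 6.97 and 6.95 in knockout cells. All 10 mice were higher after IL-33 and the groups did not overlap. Atg4d rose by 0.34 ± 0.06 (adjusted p = 0.000169, limma) and by 0.32 ± 0.06 (adjusted p = 0.000234), or 1.27-fold and 1.25-fold. Atg4b stayed too dim to test, with group means of 3.35 to 3.49.

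The ATG8 family itself split by gene. Map1lc3b, which encodes the LC3B protein widely used to count autophagosomes, read 10.87, 11.18, 10.66, 10.88 and 10.86 untreated and 9.96, 10.15, 9.86, 10.15 and 10.04 after IL-33 in wild-type cells. In knockout cells it read 10.93, 11.24, 11.00, 11.23 and 11.21, then 10.01, 10.25, 9.92, 10.12 and 10.07. The change within the 10 mice ran from -1.14 to -0.74, and the groups stood apart. Map1lc3b fell by 0.86 ± 0.09 (adjusted p = 3.48e-07, limma) and by 1.05 ± 0.09 (adjusted p = 1.28e-08), or 1.81-fold and 2.07-fold.

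Map1lc3a, its paralogue, read 10.06, 9.86, 9.71, 10.27 and 9.94 untreated and 10.45, 10.08, 10.07, 10.46 and 10.28 after IL-33 in wild-type cells. Knockout cells read 10.23, 9.86, 10.28, 9.85 and 9.75, then 10.48, 10.01, 10.49, 10.08 and 9.92. The groups overlapped, yet each of the 10 mice was higher after IL-33, by 0.15 to 0.40. Without a mouse term limma did not call it (0.30 ± 0.14, adjusted p = 0.0832, and 0.20 ± 0.14, adjusted p = 0.225). With mouse as a fixed block the adjusted p was 0.000125 (wild type) and 0.00205 (knockout), and with mouse as a random block 0.00533 and 0.0456. Of the GABARAP genes, whose proteins act in closure and fusion, Gabarap was not called (0.03 ± 0.08, adjusted p = 0.763, and 0.00 ± 0.08, adjusted p = 0.991). Gabarapl1 was not called in wild-type cells (-0.18 ± 0.08, adjusted p = 0.0890, and 0.00934 with the random block) and fell by 0.33 ± 0.08 in knockout cells (adjusted p = 0.00242), with all 10 mice lower. Quantile normalization gave -0.21 there, which was not called (adjusted p = 0.0581). Gabarapl2 was not called (-0.13 ± 0.10, adjusted p = 0.306, and -0.22 ± 0.10, adjusted p = 0.0766, with 0.0109 under the random block and 0.0491 with only the groups compared in knockout cells).

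The 3 measured cargo receptors also moved in both directions. Sqstm1, which encodes p62, read 11.89, 11.65, 11.37, 11.82 and 11.68 untreated and 12.89, 12.73, 12.45, 12.87 and 12.76 after IL-33 in wild-type cells. The knockout readings were 11.94, 11.78, 12.04, 11.78 and 11.65, then 12.93, 12.64, 12.96, 12.61 and 12.46. The lowest IL-33 array exceeded the highest untreated array in each genotype, and each mouse gained 0.81 to 1.08. Sqstm1 rose by 1.06 ± 0.11 (adjusted p = 3.09e-07, limma) and by 0.88 ± 0.11 (adjusted p = 2.3e-06), or 2.08-fold and 1.84-fold.

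Tax1bp1, a receptor for ubiquitinated cargo that also restrains NF-kB signalling, read 8.30, 8.53, 8.55, 8.28 and 8.30 untreated and 8.70, 8.82, 9.35, 8.77 and 8.90 after IL-33 in wild-type cells. In the knockout the values were 8.26, 8.33, 8.12, 8.44 and 8.47, then 9.12, 8.83, 9.49, 8.90 and 9.38. Mouse 3 was the highest after IL-33 in both genotypes. Tax1bp1 rose by 0.51 ± 0.13 (adjusted p = 0.00309) and by 0.82 ± 0.13 (adjusted p = 2.62e-05). Nbr1, a receptor with a domain structure like that of p62, read 9.34, 9.54, 9.47, 9.36 and 9.46 untreated and 9.01, 8.88, 8.98, 9.12 and 8.98 after IL-33 in wild-type cells. In knockout cells it read 9.50, 9.45, 9.41, 9.48 and 9.48, then 8.94, 8.86, 8.73, 8.75 and 8.67. No groups overlapped within a genotype. Nbr1 fell by 0.44 ± 0.06 (adjusted p = 1.39e-05) and by 0.67 ± 0.06 (adjusted p = 2.89e-08), opposite in direction to Sqstm1 on the same arrays.

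**Figure D3:**
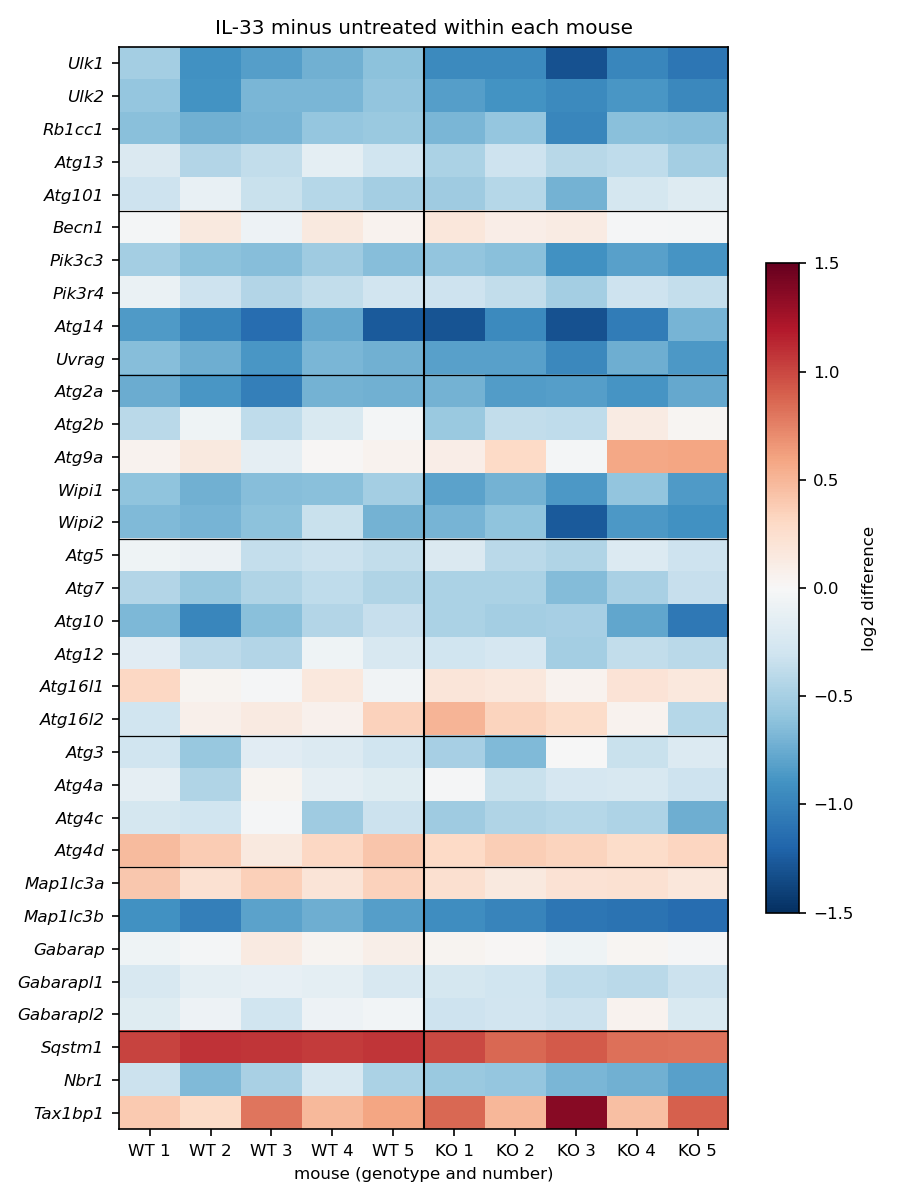
Colours give the log2 difference, IL-33 minus untreated, within each of the 5 wild-type and 5 knockout mice, blue for lower and red for higher, with lines between roles. Rows of Map1lc3b and Atg14 are blue and rows of Sqstm1 and Atg4d red in all 10 mice, and the deepest blue of Ulk1 is knockout mouse 3, at -1.31.

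Within mice, 21 of the 33 members were lower after IL-33 in all 10 mice, as were 33.1% of all genes, and 4 were higher in all 10 (Sqstm1, Tax1bp1, Atg4d and Map1lc3a), as were 15.5% of all genes. The other 8 were mixed. The spread within the IL-33 groups had a shared part: mouse 3 held the lowest array of its group for 19 of 33 members in wild-type cells and for 20 of 33 in knockout cells, where it did so for 30.65% and 29.6% of all genes. Without both arrays of mouse 3 of each genotype, an alternative added after the data were seen, 20 members fell and 3 rose in wild-type cells and 22 fell and 4 rose in knockout cells. Over all genes 24.0% were then called down and 14.5% up in wild-type cells and 30.3% and 17.1% in knockout cells. Untreated wild-type mouse 2 held the highest array for 17 members, against 30.65% of all genes.

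The second question was whether the members differed between knockout and wild-type cells. In untreated cells limma called none of the 33, where it called 0.0255% of all genes in either direction. At an unadjusted p under 0.05 there were 2 members, Map1lc3b (0.23 ± 0.09 higher in knockout cells) and Gabarap (0.17 ± 0.08), beside 12.9% of all genes. Neither mouse as a random block nor leaving out any 1 array called a member there. With array weights 3 members were called higher (Ulk2, Map1lc3b and Gabarap), beside 5.09% of all genes called higher and 7.37% lower. All 5 ATG8 family genes read higher in untreated knockout cells, by 0.03 to 0.23, none of them past the test. Of the 33 members 11 read lower there, as did 51.2% of all genes. After IL-33, 2 of these 5 genes read lower in knockout cells.

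After IL-33 limma again called none of the 33, with 2.21% of all genes called in either direction. At an unadjusted p under 0.05 there were 5 members, all lower in knockout cells, beside 24.1% of all genes. They were Ulk1 (-0.24 ± 0.08, adjusted p = 0.0881), Nbr1 (-0.20 ± 0.06, adjusted p = 0.0791), Wipi1 (-0.27 ± 0.10, adjusted p = 0.122), Pik3c3 (-0.16 ± 0.07, adjusted p = 0.157) and Wipi2 (-0.20 ± 0.09, adjusted p = 0.168). The 2 genotypes' IL-33 arrays overlapped for each of the 5. Array weights called Ulk1, Nbr1 and Wipi1 of the 33 as lower, beside 13.9% of all genes called lower. Without wild-type IL-33 array 2, these 3 and Atg10 were called lower, beside 9.78% of all genes. Without knockout IL-33 array 1, Ulk1 and Nbr1 were, beside 6.54% of all genes.

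The third test compared the response to IL-33 between genotypes, knockout minus wild type. It called no member and 0 of all genes by limma, with 2 members (Ulk1 at -0.34 ± 0.11, adjusted p = 0.781, and Nbr1 at -0.24 ± 0.09, adjusted p = 0.863) and 4.83% of all genes at an unadjusted p under 0.05. With mouse as a random block 16 genes were called higher and 10 lower, none of them a member, and with mouse as a fixed block none. The difference was below 0 for 27 of 33 members, or 81.8%, and for 59.5% of all genes, with medians of -0.08 and -0.03. The 4 members called in knockout cells alone (Atg9a, Atg5, Atg4a and Gabarapl1) were thus not shown to respond differently. They are 12.1% of the 33, and 13.3% of all genes were called in knockout cells alone.

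Genes that act around the core machinery were grouped in 5 further lists. Of all genes 26.7% were called down and 16.1% up in wild-type cells, and 33.2% and 18.9% in knockout cells. Of 29 tested regulators of mTORC1, AMPK and nutrient sensing, 14 fell and 3 rose in wild-type cells and 18 fell and 4 rose in knockout cells, with medians of -0.30 and -0.33, beside -0.05 and -0.08 over all genes. By the larger of the 2 genotypes' changes, the most changed were Sesn1 (-0.72 ± 0.13 and -0.87 ± 0.13), a sestrin that restrains mTORC1, Castor2 (-0.77 ± 0.12 and -0.87 ± 0.12), a paralogue of an arginine sensor, Lamtor4 (-0.84 ± 0.07 and -0.82 ± 0.07), a subunit of the Ragulator scaffold, and the GTPase gene Rragd (-0.52 ± 0.15 and -0.79 ± 0.15). Of 11 transcription factors of autophagy and lysosome genes, 4 fell and 3 rose in wild-type cells and 5 fell and 4 rose in knockout cells, with medians of -0.14 and -0.06. Tfec rose by 2.66 ± 0.20 and 2.79 ± 0.20 and Tfe3 by 0.78 ± 0.07 and 0.83 ± 0.07, both of the family of TFEB. Tfeb itself was lower after IL-33 in all 10 mice, with changes of -0.50 to -0.09, as were 33.1% of all genes. Foxo3, a forkhead activator of autophagy genes, fell by 0.62 ± 0.11 and by 0.83 ± 0.11. Atf4, an activator of stress response genes that is named for its knockout value, was called in knockout cells (0.75 ± 0.23) and not in wild-type cells (0.41 ± 0.23). It was higher after IL-33 in all 10 mice, by 0.14 to 0.90, as were 15.5% of all genes. Its response was not called different between genotypes.

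Among 17 modulators of the Beclin 1 complex and further phagophore factors, 8 fell and 7 rose in wild-type cells and 9 fell and 8 rose in knockout cells, with medians of -0.21 and -0.33. Bcl2 (1.37 ± 0.18 and 1.92 ± 0.18) and Bcl2l1 (1.19 ± 0.09 and 1.28 ± 0.09), whose proteins bind Beclin 1 and also guard mitochondria, rose. Of the untreated wild-type arrays of Bcl2, 2 of 5 (3.22 and 3.53) lay below their percentile, so its wild-type difference is uncertain. Wdr45 (-0.73 ± 0.09 and -1.03 ± 0.09), a relative of the WIPI genes, and Trp53inp1 (-0.60 ± 0.08 and -0.89 ± 0.08), which binds ATG8 proteins, fell. Of 19 further receptors of selective autophagy, 8 fell and 4 rose in wild-type and 9 fell and 7 rose in knockout cells, with medians of -0.11 and -0.19. Wdfy3, the scaffold of aggregate clearance also called ALFY, which binds p62, rose by 1.37 ± 0.09 and 1.45 ± 0.09. Pink1 (-0.71 ± 0.19 and -0.87 ± 0.19), the kinase that marks damaged mitochondria, Retreg3 (-0.53 ± 0.09 and -0.70 ± 0.09), a receptor on the endoplasmic reticulum, and Calcoco1 (-0.49 ± 0.17 and -0.61 ± 0.17) fell.

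Of 18 genes of the fusion of autophagosomes with lysosomes, 8 fell and 2 rose in wild-type and 11 fell and 1 rose in knockout cells, with medians of -0.15 and -0.23. By the larger of both genotypes' changes, the largest falls were in Tecpr1 (-0.74 ± 0.08 and -0.88 ± 0.08), a tether that binds the ATG12 and ATG5 conjugate, Vps11 (-0.41 ± 0.09 and -0.60 ± 0.09), a subunit of the HOPS tether, Plekhm1 (-0.52 ± 0.05 and -0.57 ± 0.05), an adaptor between RAB7 and ATG8 proteins, and Stx17 (-0.43 ± 0.12 and -0.52 ± 0.12), the SNARE of the autophagosome. In the order given, the 5 lists had 48.3%, 36.4%, 47.1%, 42.1% and 44.4% called down in wild-type cells. Those called up there were 10.3%, 27.3%, 41.2%, 21.1% and 11.1%. In knockout cells 62.1%, 45.5%, 52.9%, 47.4% and 61.1% were called down. Called up in knockout cells were 13.8%, 36.4%, 47.1%, 36.8% and 5.56%. The shares of these lists called in each direction stand beside those of all genes in the plot of shares by list.

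**Figure D4:**
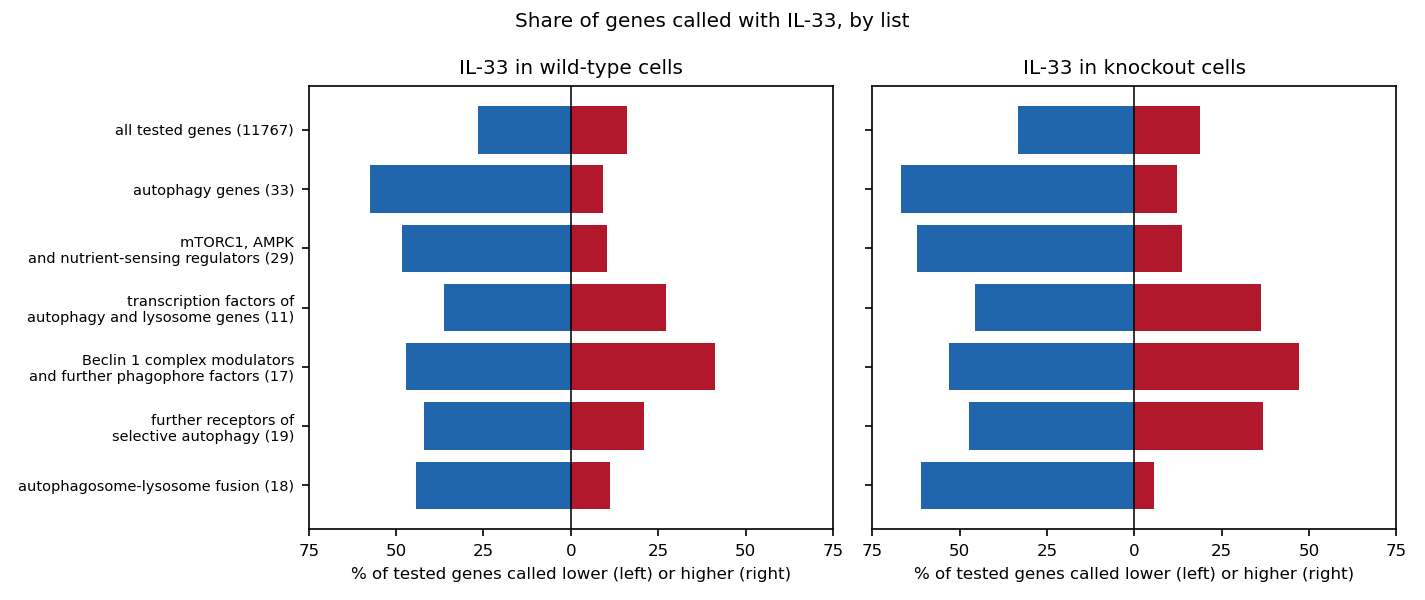
Bars give the percentage of tested genes called lower (blue, left) and higher (red, right) after IL-33 for each genotype, the number tested in brackets. The 33 autophagy genes reach 57.6% and 66.7% lower, beside 26.7% and 33.2% of all tested genes.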

How the data were processed

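Biotin-labelled cRNA was made from total RNA by the 3' IVT Express protocol, per the labels, for 20 Affymetrix arrays. The authors deposited log2 values, 20630 probe sets by 20 arrays, from 1.27 to 13.99. The background correction, summarization and normalization were steps not given in the sources used here. Differences between groups depend on those steps. Gene names came from the platform annotation (17826 probe sets with 1 symbol, 91 with several), 1 probe set a gene, the brighter on average where there were several.

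A gene was tested when it exceeded its array's 40th percentile on at least 5 arrays. All 20 arrays entered limma 3.58.1 (R 4.3.3), with 1 mean per group, 16 residual degrees of freedom and Benjamini-Hochberg adjustment over 11767 genes. Deviations from the group means correlated at 0.262 to 0.783 between the 2 arrays of a number within a genotype, all 10 best with their own number, and the series text gives 5 mice per genotype, so the number was taken as the mouse. The number of arrays limits the precision. All members may be named. Each further list gives up to 4 genes called in either genotype, ranked by the larger of the 2 genotypes' changes. Tfeb was added to these beside its relatives Tfec and Tfe3. The members and lists were chosen with earlier results of these data known. Alternatives changed the normalization, filter, block, variance model, weights and arrays used. Promoter sequences came from RefSeq (GRCm38.p6); 28 of the 35 members matched.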

Additional observations from a re-analysis of the deposited data

Results flagged for a closer look

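Of 140 sets of 5 arrays looked at, for 34 members and Dusp5 in 4 groups, 8 held an array whose distance to the nearest other array was most of the group's range, and chance gives about 1 in 20. In wild-type cells after IL-33, array 2 was low for Atg9a (7.42, the others 7.52 to 7.55) and Atg10 (3.95, the others 4.53 to 4.71), and array 3 was low for Atg7 (8.11, the others 8.47 to 8.61). In untreated wild-type cells array 2 was high for Atg16l1 (6.83, the others 6.54 to 6.58) and array 3 low for Atg4c (5.54, the others 5.96 to 6.08). In knockout cells after IL-33, array 1 was high for Atg4a (7.24, the others 6.99 to 7.01) and Atg4d (7.05, the others 6.94 to 6.97), and array 3 was low for Atg12 (8.04, the others 8.27 to 8.35).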

How the results depend on the processing

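With IL-33, the members called down numbered 17 to 23 in wild-type cells and 20 to 24 in knockout cells over all alternatives run, and those called up 3 to 4 and 3 to 6. The number was taken as the mouse. With mouse as a random replicate block 23 members fell in wild-type and 24 in knockout cells, and as a fixed block 22 and 23. Under both blocks 6 were called up in knockout cells. Quantile normalization ended the calls of Atg4c (adjusted p = 0.111) and Atg12 (0.0875) in wild-type cells and of Atg5 (0.134), Atg4a (0.259) and Gabarapl1 (0.0581) in knockout cells, and called Atg2b down in both (0.0428 and 0.0318) and Atg16l1 up in knockout cells (0.00262). Fitting only the groups compared ended those of Atg12 (0.0909) and Atg3 (0.0589) in wild-type and Atg9a in knockout cells (0.0545), and called Atg16l1 up (0.0446) and Gabarapl2 down (0.0491) in knockout cells. Between untreated genotypes array weights called 3 members up, beside 5.09% of all genes. After IL-33 they called 3 members down, beside 13.9% of all genes. Leaving out 1 array gave 0 to 4 down after IL-33, and all genes called there ranged from 22 to 508 up and from 10 to 1151 down, against 116 and 144. For all genes the same comparison gave 690 and 1631 with array weights, 175 and 339 with the random block, 165 and 279 at the 60th percentile, 85 and 67 without a filter, 151 and 72 with quantile normalization, 20 and 4 with only the groups compared and 10 and 1 without mouse 3. Array weights called 599 genes up and 867 down between untreated genotypes, against 2 and 1.

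Changes of sign were among changes not called. Gabarap in knockout cells was -0.0511 with quantile normalization and ran from -0.0313 to 0.0265 on leaving out 1 array. In wild-type cells, leaving out 1 array gave -0.0221 to 0.0942 for Gabarap, -0.0442 to 0.118 for Becn1, -0.0243 to 0.0774 for Atg9a and -0.0087 to 0.1116 for Atg16l2. The causes were not tested. Of the IL-33 results of all members and their genotype results called under any alternative, recomputed under each, 1994 stayed on their side of the threshold, 58 gained and 39 lost a call and 10 changed sign. The other probe sets of a member could not be tried, since no member has several in the deposited table. That table held 17826 probe sets with 1 symbol for 17771 genes, and the sources used here do not say how they were chosen. Each reading, dim or unchanged ones included, is thus that of the 1 probe set kept. Signal near the percentile limits Atg3, Atg16l2, Atg2b, Atg4b and, untreated, Bcl2.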
